A study of Mus musculus with 10 samples.

Results

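Genes of the choroid plexus and of motile cilia were followed in hindbrain tissue of newborn Nkx2.2-/- mice and wild-type (WT) littermates. The members were 36 genes listed by cell type, and every probe set whose annotated gene symbol was one of them was taken. This gave 61 probe sets for 35 genes, of 45037 probe sets and 18193 genes with 1 symbol in all. The genes fall into choroid plexus, with 24 probe sets for 14 genes, and ciliated ependyma, with 37 probe sets for 21 genes. Prlr, listed with the choroid plexus, was matched to no named probe set and was not analysed here. Of the 10 C57BL/6 mice, 5 were Nkx2.2-/- (replicates 11, 12, 22, 29 and 43) and 5 WT (replicates 14, 15, 16, 18 and 21), all aged 1.5 to 2 days and untreated, with 1 array each. RNA came from the pons, medulla and rostral spinal cord, dissected from 20 µm sagittal sections. The mutation was not described further in the labels used here, and neither was the litter of each mouse. The limma p-values weigh the genotype difference against the spread between mice within genotypes. The tests treat the mice as independent, which could not be checked. The comparison asks what loss of Nkx2.2 changes in this tissue; Nkx2.2 is a homeodomain transcription factor of ventral neural progenitors and oligodendrocyte precursors.

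The choroid plexus is a fold of secretory epithelium over a vascular core that hangs into each brain ventricle, that of the hindbrain from the roof of the fourth ventricle. It makes cerebrospinal fluid and secretes carrier proteins into it. Ependymal cells line the ventricles and central canal, and their motile cilia move the fluid; many of these cells acquire cilia only after birth in mice. FOXJ1 and the RFX factors switch on genes of the ciliary axoneme, whose dynein arms, radial spokes and central pair drive the beat, while OTX2 is needed for choroid plexus development.

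None of the 61 probe sets passed the comparison of genotypes, in either direction, and the groups overlapped for every gene by its brightest probe set, where they did not for 0.682% of all genes. Instead the choroid plexus transcripts spread widely from mouse to mouse within each genotype, as did markers of the cerebellum and meninges. Ttr spanned 5.65 on the log2 scale over the 10 mice, a 50.4-fold range, and the same 3 mice, Nkx2.2-/- replicate 11 and WT replicates 18 and 21, gave the 3 highest levels of most choroid plexus genes. By the brightest probe set of each gene, 1 of the 21 ciliary genes, Dynlrb2, ranged over more than 1 on the log2 scale across the mice. Of the 14 choroid plexus genes 7 did.

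RFX factors bind the X-box, so the promoter windows of members were searched for its core letters GTTGCC on both strands. Windows run from 250 bases before to 50 after the start, from RefSeq in build GRCm38.p6, with the first listed taken where a gene has several. Of the 35 measured members 27 had one, and Ttr, Foxj1, Folr1, Clic6, Sostdc1, Lbp, Rsph1 and Rarres2 did not. Aqp1 had the letters and levels that spread between mice, but its window is not shown. The 4 windows shown all hold the letters. They were chosen for levels, given below, that spread between mice (Dynlrb2, Kcne2 and Otx2) or for letters on both strands (Tekt1). They are Dynlrb2 at chr8:116504765-116505064 (plus strand), Tekt1 at chr11:72361833-72362132 (minus strand), Kcne2 at chr16:92292139-92292438 (plus strand) and Otx2 at chr14:48667595-48667894 (minus strand), each written 5′ to 3′ along the gene with GTTGCC or its reverse complement GGCAAC in capitals.
Dynlrb2: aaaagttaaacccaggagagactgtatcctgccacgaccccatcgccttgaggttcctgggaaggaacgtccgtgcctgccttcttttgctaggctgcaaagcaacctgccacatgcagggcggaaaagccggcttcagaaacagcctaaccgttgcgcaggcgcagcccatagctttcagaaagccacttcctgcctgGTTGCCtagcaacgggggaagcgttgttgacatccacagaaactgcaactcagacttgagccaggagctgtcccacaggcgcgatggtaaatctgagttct
Tekt1: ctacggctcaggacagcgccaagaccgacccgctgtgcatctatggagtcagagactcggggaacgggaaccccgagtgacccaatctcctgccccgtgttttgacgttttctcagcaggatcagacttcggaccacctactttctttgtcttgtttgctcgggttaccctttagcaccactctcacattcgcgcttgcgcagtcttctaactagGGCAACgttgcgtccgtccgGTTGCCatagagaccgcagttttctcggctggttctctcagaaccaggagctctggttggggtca
Kcne2: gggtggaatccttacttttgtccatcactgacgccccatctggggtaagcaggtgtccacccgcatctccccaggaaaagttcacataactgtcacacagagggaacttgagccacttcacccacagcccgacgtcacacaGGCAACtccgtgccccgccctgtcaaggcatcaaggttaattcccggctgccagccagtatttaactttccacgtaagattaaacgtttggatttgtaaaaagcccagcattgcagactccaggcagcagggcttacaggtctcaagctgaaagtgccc
Otx2: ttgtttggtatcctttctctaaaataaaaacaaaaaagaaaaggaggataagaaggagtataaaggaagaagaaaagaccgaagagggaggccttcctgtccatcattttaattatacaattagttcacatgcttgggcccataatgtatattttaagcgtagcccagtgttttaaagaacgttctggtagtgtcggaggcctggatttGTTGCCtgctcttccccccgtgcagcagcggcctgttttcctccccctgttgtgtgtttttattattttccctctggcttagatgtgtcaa

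GTTGCC was found in 8 of 18 windows of ciliated ependyma genes (44.4%), in 4 of 9 of choroid plexus genes (44.4%) and in 12.7% of the 27025 windows of all genes. The ciliary genes with it were Ccdc153, Dynlrb2, Hydin, Rfx2, Rfx3, Spag16, Spef2 and Tekt1, and the choroid plexus genes were Aqp1, Kcne2, Otx2 and Steap1. In Dynlrb2 the match starts 51 bases before the annotated start. A second form, GTTGCNA, whose matches can overlap those of the first, was in 8 of 18 ciliary and 0 of 9 choroid plexus windows, against 10.6% of all. The forkhead letters TGTTTAC were in 1 ciliary and 0 choroid plexus windows (3.55% of all), and the OTX letters TAATCC in 1 and 0 (7.16% of all). Each was searched on both strands. A match of letters is a description and shows no binding.

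The values are log2 expression levels made with RMA, between 3.52 and 13.2, with array medians from 5.07 to 5.12. RMA gives no detection call and compresses differences between dim probe sets; 6 of the 24 choroid plexus and 21 of the 37 ciliary probe sets had a mean below 5.09, the median of all. Nkx2-2 was at 4.73, 4.34, 4.24, 4.58 and 4.64 in the Nkx2.2-/- mice and at 6.88, 6.47, 6.49, 6.51 and 6.42 in the WT mice, which separates the labelled genotypes (log2 change -2.05, limma adjusted p = 7.2e-05). On 1 array of each genotype, Nkx2.2-/- replicate 43 and WT replicate 14, the 3 prime control probe set of Gapdh exceeded the 5 prime one, by 3.78 and 2.13, against -0.32 to 0.13 on the others. In whole tissue, fewer cells of a type and less RNA per cell cannot be told apart.

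Among secreted carrier proteins, Ttr encodes transthyretin, which the choroid plexus makes in bulk and which carries thyroid hormone and retinol-binding protein. It lay at 12.73, 11.97, 7.08, 8.82 and 11.56 in Nkx2.2-/- replicates 11, 12, 22, 29 and 43, and at 9.32, 10.86, 11.97, 12.60 and 12.57 in WT replicates 14, 15, 16, 18 and 21. Both genotypes held mice above 12.5 and mice below 9.5, and the lowest of all was Nkx2.2-/- replicate 22. The means were 10.4 ± 2.39 in Nkx2.2-/- and 11.5 ± 1.39 in WT mice (SD, n = 5 each), and the log2 change was -1.03 (SE 1.06, 95% interval -3.38 to 1.31, limma adjusted p = 0.9997). By exact permutation of the mice, two-sided, p was 0.444. That interval spans 0 and changes in both directions, so 5 mice a genotype left the size and sign of any change unsettled. Its 4 probe sets gave changes from -1.05 to -0.95. Without Nkx2.2-/- replicate 22 the change was -0.19, and without both Nkx2.2-/- replicate 43 and WT replicate 14 it was -1.85. Only 8 of the 45037 probe sets had a larger spread within genotypes than the brightest one for Ttr (SD 1.95). These included other Ttr probe sets (SD 2.15 and 2.02).

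Markers of spinal cord level were highest in the 2 mice with the lowest Ttr. The mean log2 level of 11 spinal Hox genes was 4.99, 5.03, 5.39, 5.40 and 5.14 in Nkx2.2-/- replicates 11, 12, 22, 29 and 43, and 4.90, 4.92, 4.999, 4.91 and 5.01 in WT replicates 14, 15, 16, 18 and 21. These 2 mice were Nkx2.2-/- replicates 22 and 29, whereas WT replicate 14, next lowest in Ttr, had the lowest Hox mean. Of the 11 genes 10 were higher in the Nkx2.2-/- mice in sign, where 53.0% of all genes were lower, with changes from -0.04 to 1.33 and 0 passing the test. The sums of their levels ran from 54.9 to 59.4 in Nkx2.2-/- and from 53.9 to 55.2 in WT mice. Their part in the levels of Ttr and the other choroid plexus genes was not tested.

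Folr1, the folate receptor that carries folate into the cerebrospinal fluid, was at 6.34, 5.55, 4.82, 4.96 and 4.92 in the Nkx2.2-/- mice, and at 4.86, 5.39, 5.37, 6.79 and 6.09 in the WT mice, in the same replicate order. The highest mouse of each genotype, Nkx2.2-/- replicate 11 and WT replicate 18, stood 1.52 and 1.93 above the lowest of its own group. The change was -0.38 (95% interval -1.22 to 0.46). Sostdc1, a secreted antagonist of BMP and Wnt signals, was at 7.04, 6.24, 5.82, 5.70 and 6.05 in Nkx2.2-/- mice and at 5.76, 6.47, 6.13, 7.15 and 6.58 in WT mice, again highest in replicates 11 and 18 (change -0.25, 95% interval -0.88 to 0.38). Lbp, the lipopolysaccharide-binding protein, ranged over 0.67 with a change of -0.03.

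Channels and transporters of the epithelium followed the same mice. Kcne2, an accessory subunit of potassium channels, was at 6.10, 5.12, 4.47, 4.31 and 4.82 in the Nkx2.2-/- mice and at 4.50, 4.70, 5.16, 6.78 and 5.41 in the WT mice. Kcnj13, an inward rectifier potassium channel, was at 6.06, 5.72, 5.39, 5.42 and 5.17 in Nkx2.2-/- and at 5.47, 5.79, 5.59, 6.63 and 5.68 in WT mice. Aqp1, the water channel of the apical membrane, was at 6.06, 5.15, 4.73, 4.74 and 4.92 in Nkx2.2-/- and at 4.98, 5.16, 5.02, 6.18 and 5.55 in WT mice. In all 3 genes Nkx2.2-/- replicate 11 and WT replicate 18 were the highest of their genotypes, and the groups overlapped. Their log2 changes were -0.35 (95% interval -1.32 to 0.63), -0.28 (-0.78 to 0.21) and -0.25 (-0.89 to 0.38). Clic6, of the intracellular chloride channel family, lay between 5.66 and 6.46 in Nkx2.2-/- and between 5.83 and 6.53 in WT mice, with a change of -0.09. The dimmer probe set for Clic6 ranged over 2.04 across the mice, with a change of -0.21 and Nkx2.2-/- replicate 11 and WT replicates 18 and 21 on top. Slc4a5, a sodium bicarbonate cotransporter, had a change of 0.0047, and Trpv4, a cation channel that responds to osmotic stress, one of -0.01. Steap1, of a family of metal reductases, had a change of -0.10, and of -0.26 in its dimmer probe set.

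Otx2, the transcription factor, was at 6.23, 4.84, 4.54, 4.76 and 5.07 in the Nkx2.2-/- mice and at 4.85, 5.08, 4.89, 6.54 and 5.77 in the WT mice. It too was highest in Nkx2.2-/- replicate 11 and WT replicates 18 and 21 (change -0.34, 95% interval -1.18 to 0.50); OTX2 is also made by precursors of cerebellar granule cells. Kl, which encodes klotho, a coreceptor for a hormone of the fibroblast growth factor family, was dim in every mouse, from 4.49 to 4.71 in Nkx2.2-/- and from 4.54 to 4.60 in WT mice.

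Igfbp7, a secreted protein made by vessels as well as choroid plexus, was also highest in replicates 11 and 18 within the genotypes, but its 3 highest mice were all WT. It was at 7.39, 7.29, 7.29, 7.30 and 7.15 in the Nkx2.2-/- mice and at 7.43, 7.60, 7.25, 7.62 and 7.49 in the WT mice. Of the WT mice 4 lay above every Nkx2.2-/- mouse and replicate 16 lay among them. Its log2 change was -0.19 (SE 0.0725, limma adjusted p = 0.9997), and the other probe sets for it gave changes of 0.07 and 0.03. Of the 11 endothelial markers 5 were higher in sign and of the 9 mural cell markers 8 were lower, none passing the test; the sums of their log2 levels ran from 65.8 to 67.2 in Nkx2.2-/- and 65.7 to 68.0 in WT mice for endothelium, and from 56.1 to 58.3 and from 56.5 to 59.6 for mural cells. Their part in the Igfbp7 value was not tested.

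**Figure D1:**
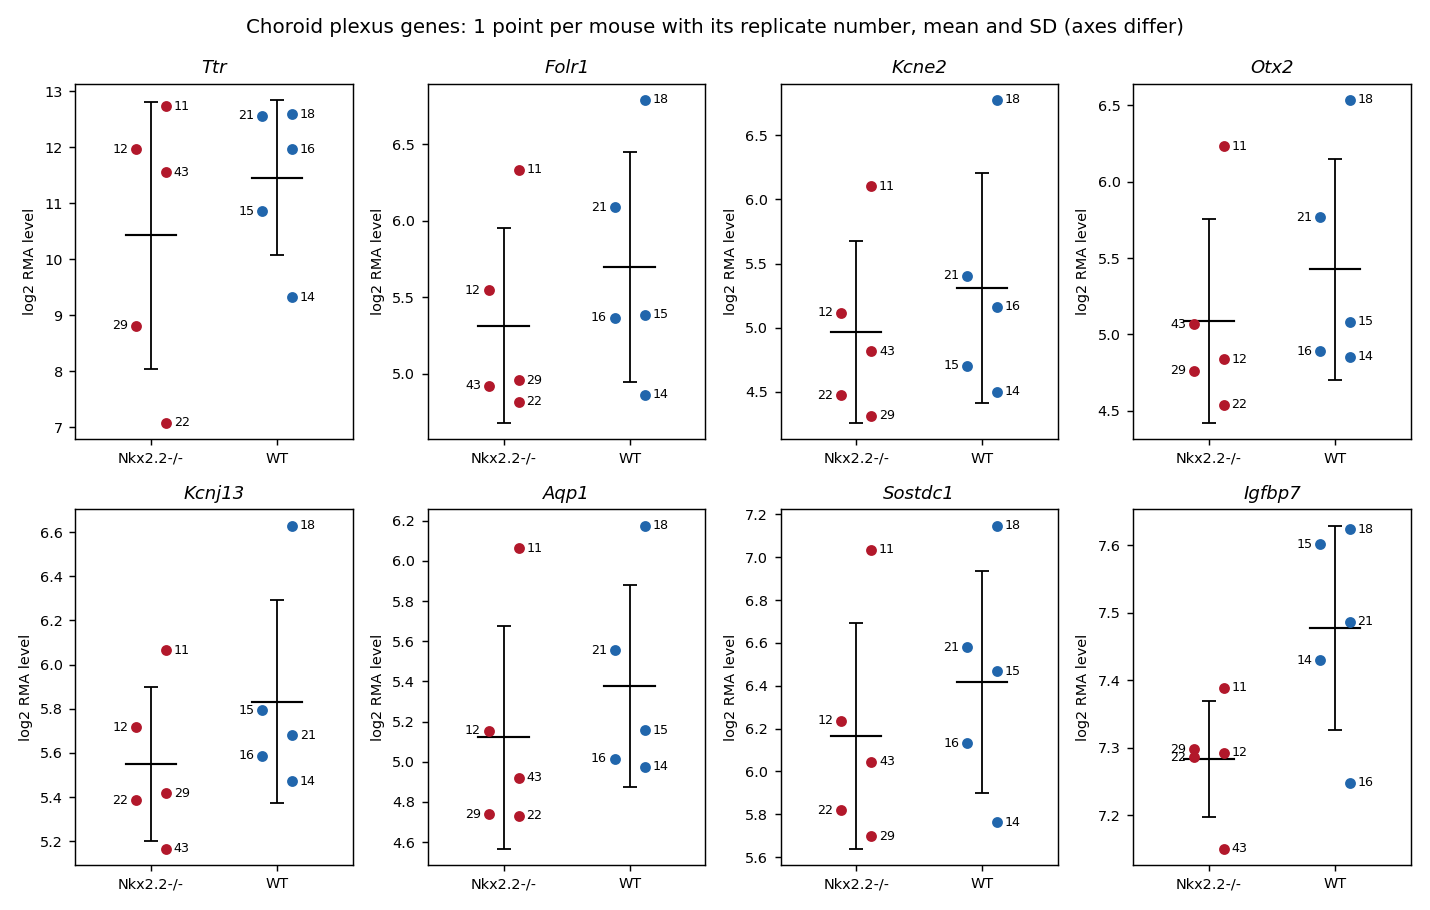
Log2 RMA level (y axes differ) of 8 choroid plexus genes, 1 point per mouse labelled with its replicate number, with Nkx2.2-/- mice in red on the left and WT mice in blue on the right; bars are the mean and SD of 5 mice. Nkx2.2-/- replicate 11 and WT replicate 18 stand at the top of their genotypes in all 8 panels, and in each panel the genotypes overlap.

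As a group, 12 of the 14 choroid plexus genes had a negative log2 change, against 53.0% of all genes, and their median log2 change was -0.22, against -0.0042 over all genes. Without WT replicate 18 that median was -0.05. By limma with Benjamini-Hochberg adjustment 0 of 14 genes passed, where 0.0511% of all probe sets and 0.0605% of genes in a fit by gene did, and 1, Igfbp7, had an unadjusted p below 0.05, where 3.69% of all genes did. The spread within genotypes was wide. Its median SD over the 14 genes was 0.344, against 0.0911 over all probe sets, and 10 of the 14 had an SD above 0.226, which 1 in 10 of all probe sets exceeded. This spread was not particular to the choroid plexus. For 14 cerebellar and 14 meningeal markers, described below, the median SDs were 0.364 and 0.332, with 12 of 14 above 0.226 in each list.

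Among the ciliated ependyma genes, the regulators overlapped between genotypes. Foxj1, the transcription factor that switches on motile ciliogenesis, was at 5.54, 5.16, 5.30, 4.87 and 4.94 in the Nkx2.2-/- mice and at 4.92, 4.95, 5.15, 5.43 and 5.46 in the WT mice. The groups covered nearly one range, and Nkx2.2-/- replicate 11 and WT replicates 21 and 18 were highest. The means were 5.16 ± 0.271 in Nkx2.2-/- and 5.18 ± 0.256 in WT mice (SD, n = 5 each), and the log2 change was -0.02 (SE 0.146, 95% interval -0.34 to 0.30, limma adjusted p = 0.9997). By exact permutation, two-sided, p was 0.944. Rfx2 was at 5.15, 5.04, 5.14, 4.97 and 5.01 in Nkx2.2-/- and at 5.08, 5.19, 5.11, 5.22 and 5.14 in WT mice (change -0.09, 95% interval -0.19 to 0.02). Rfx3 was at 6.53, 6.33, 6.16, 6.63 and 6.71 in Nkx2.2-/- and at 6.34, 6.41, 6.50, 6.80 and 6.61 in WT mice (change -0.06, 95% interval -0.31 to 0.19). Neither put the 3 mice of highest Ttr on top.

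Of the dynein genes, Dynlrb2, a light chain of the roadblock family, varied most. It was at 6.53, 5.52, 5.73, 5.43 and 5.55 in the Nkx2.2-/- mice and at 5.81, 5.47, 5.81, 6.27 and 6.47 in the WT mice, so that its 3 highest mice were those of Ttr. Its change was -0.22 (95% interval -0.73 to 0.30). Dnaic1, an intermediate chain of the outer dynein arm, was at 5.74, 5.72, 5.75, 5.77 and 5.79 in Nkx2.2-/- and at 5.79, 5.62, 5.56, 5.59 and 5.67 in WT mice. Here WT replicate 14 alone reached the Nkx2.2-/- levels, and the change was 0.11 (SE 0.0452, limma adjusted p = 0.9997). The dynein heavy chains Dnah6 and Dnah11 had changes of 0.04 and 0.04 and ranged over 0.247 and 0.28 across all mice.

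Rsph1, of the radial spoke head, was at 5.39, 5.05, 4.998, 5.04 and 4.87 in the Nkx2.2-/- mice and at 5.18, 5.13, 5.20, 5.31 and 5.59 in the WT mice. All Nkx2.2-/- mice except replicate 11 lay below every WT mouse, and the change was -0.21 (SE 0.107, 95% interval -0.45 to 0.02). Hydin, a large protein of the central pair, ranged over only 0.152 in its brightest probe set, with levels of 5.46, 5.45, 5.49, 5.38 and 5.40 in Nkx2.2-/- and 5.48, 5.44, 5.41, 5.47 and 5.34 in WT mice. Its dimmer probe set, at 4.53, 4.50, 4.51, 4.51 and 4.60 in Nkx2.2-/- and at 4.47, 4.48, 4.42, 4.47 and 4.37 in WT mice, was the only one of the 61 whose groups did not overlap, where 0.757% of all probe sets did not. Its change of 0.09 did not pass (SE 0.037, limma adjusted p = 0.9997). The other central pair genes, Spag16, Spag17 and Spef2, had changes of -0.03, -0.02 and 0.05.

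Ccdc39, which with Ccdc40 sets the spacing of dynein arms along the axoneme, was at 5.63, 5.48, 5.48, 5.54 and 5.61 in the Nkx2.2-/- mice and at 5.62, 5.54, 5.59, 5.76 and 5.77 in the WT mice (change -0.11, 95% interval -0.23 to 0.01); Ccdc40 had a change of -0.04. Cfap126, which acts in placing the basal bodies of cilia, was high in Nkx2.2-/- replicate 11, with 6.38, 5.74, 5.89, 5.67 and 5.66 in Nkx2.2-/- and 5.76, 5.67, 5.81, 6.09 and 6.00 in WT mice (change 0.0044). Mia, a small secreted protein, was at 6.79, 6.20, 6.39, 6.31 and 6.18 in Nkx2.2-/- and at 6.12, 6.31, 6.24, 6.77 and 6.76 in WT mice, so that its 3 highest mice were again those of Ttr (change -0.06, 95% interval -0.40 to 0.28). Tekt1, a tektin of the axonemal microtubules, Ak7, an adenylate kinase of cilia, and the ependymal markers Ccdc153 and Tmem212 had changes of -0.03, -0.02, -0.02 and -0.02, and Tmem212 had the widest range of these, 0.464. Rarres2, the secreted attractant chemerin, which has no ciliary role, was at 5.32, 5.13, 5.47, 5.38 and 5.18 in Nkx2.2-/- and at 5.25, 5.48, 5.35, 5.37 and 5.29 in WT mice (change -0.05).

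**Figure D2:**
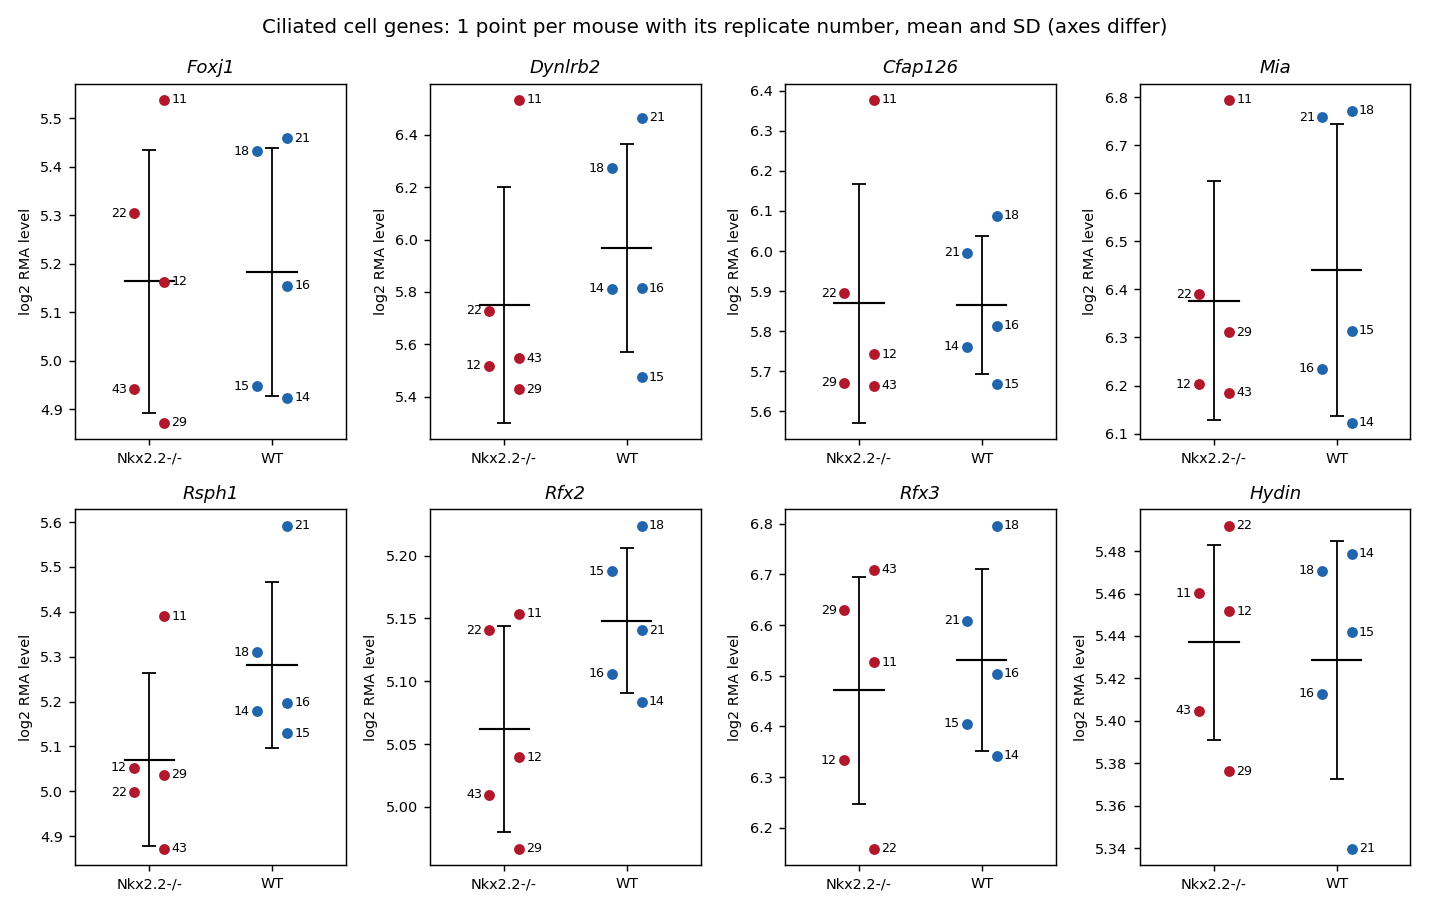
Log2 RMA level (y axes differ) of 8 ciliated ependyma genes, 1 point per mouse labelled with its replicate number, with Nkx2.2-/- mice in red on the left and WT mice in blue on the right; bars are the mean and SD of 5 mice. Foxj1, Dynlrb2, Cfap126, Mia and Rsph1 have Nkx2.2-/- replicate 11 and WT replicates 18 and 21 on top, whereas Rfx2, Rfx3 and Hydin do not.

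Over the 21 ciliated ependyma genes the median log2 change was -0.02, with 15 lower and 6 higher in the Nkx2.2-/- mice in sign. Of their changes 17 lay within 0.1 of 0, and every 95% interval lay between -0.73 and 0.30. By limma 0 of 21 passed, where 0.0511% of all probe sets did, and 1, Dnaic1, had an unadjusted p below 0.05; with the dimmer probe set of Hydin this was 2 of 37 probe sets, where 3.43% of all had one. The spread within genotypes was close to that of other genes, with a median SD of 0.0992, and 4 of the 21 had an SD above 0.226: Foxj1, Dynlrb2, Cfap126 and Mia.

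**Figure D3:**
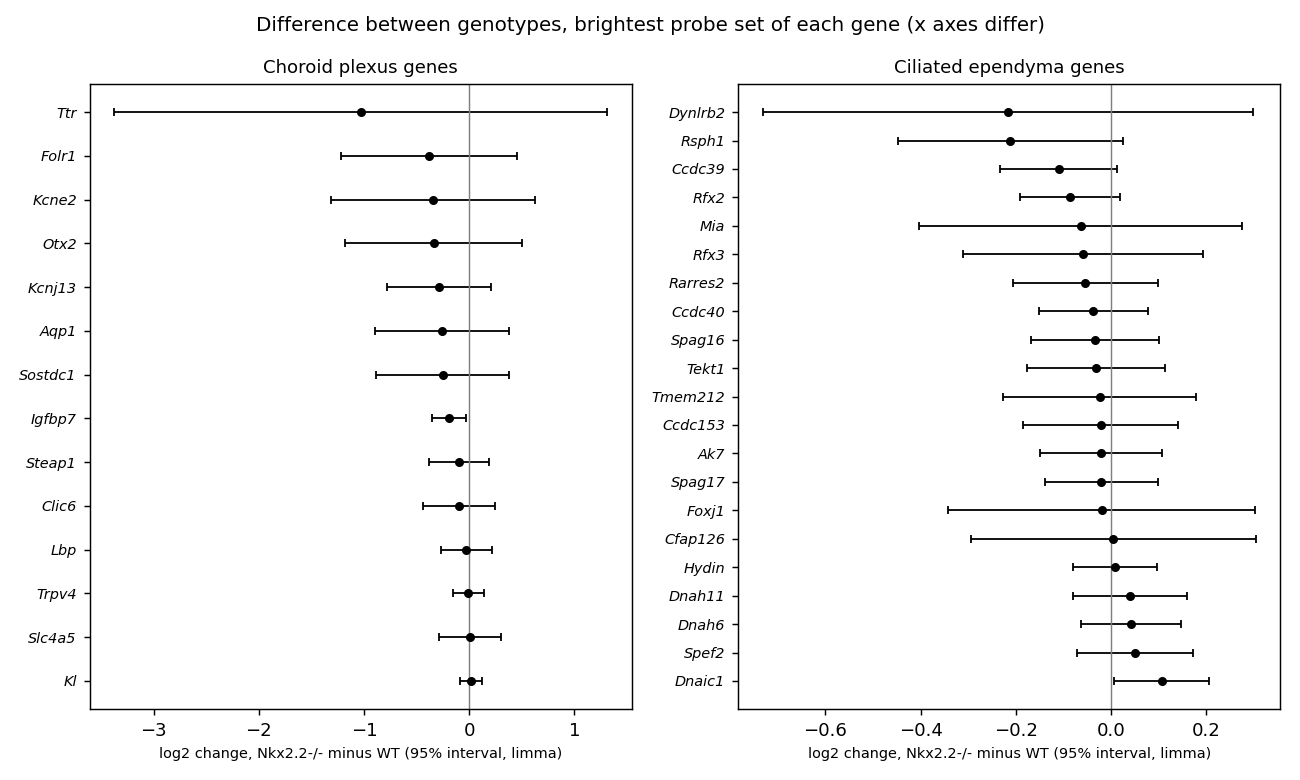
Log2 change, Nkx2.2-/- minus WT, with its 95% interval from limma for the brightest probe set of each gene, choroid plexus on the left and ciliated ependyma on the right (x axes differ). The interval of Ttr runs from -3.38 to 1.31, while those of the ciliary genes stay between -0.73 and 0.30.

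Other genes of both tissues were taken from lists that hold none of the members. Of 36 further choroid plexus genes 0 passed limma with Benjamini-Hochberg adjustment and 2 had an unadjusted p below 0.05, where 0.0605% and 3.69% of all genes did, with a median change of -0.08. The largest change was in Cox8b, a subunit of cytochrome oxidase, at 4.79, 4.63, 4.67, 4.76 and 4.67 in the Nkx2.2-/- mice and at 6.95, 6.72, 4.72, 4.78 and 4.60 in the WT mice. Its change of -0.85 (limma adjusted p = 0.9997) rested on WT replicates 14 and 15, the only mice above 5. Ecrg4, a secreted precursor protein, was at 8.29, 6.72, 5.99, 5.97 and 6.26 in Nkx2.2-/- and at 6.24, 6.74, 6.87, 8.48 and 7.80 in WT mice. The 3 mice of highest Ttr were also its highest (change -0.58, 95% interval -1.70 to 0.55). Igfbp2, Col9a3 and Sulf1, for an insulin-like growth factor binding protein, a chain of collagen IX and a heparan sulfatase, had changes of -0.42, -0.28 and -0.24. Of 57 further motile cilia genes 0 passed and 6 had an unadjusted p below 0.05, against the same 0.0605% and 3.69% of all genes, with a median change of -0.0076. The largest changes were -0.36 in Mlf1, -0.25 in Tppp3, a tubulin-binding protein, -0.24 in Meig1, -0.19 in Enkur and -0.17 in Spa17.

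The order of the mice was compared between gene lists. Nkx2.2-/- replicate 11 and WT replicates 18 and 21 gave the 3 highest levels for 9 of the 13 choroid plexus genes other than Ttr and for 9 of the 21 ciliated ependyma genes, where 2.06% of all genes had these 3 mice on top. Among the further genes this held for 9 of 36 of the choroid plexus and 9 of 57 of motile cilia. One of these 3 mice was the highest for 31 of the 35 members. That count includes Ttr, by which the 3 mice were picked, and the share over all genes was not computed, so it is description only. Cerebellar tissue adjoins the roof of the fourth ventricle, and 11 of 14 cerebellar markers had the same 3 mice on top. The mean log2 level of the cerebellar list was 7.21, 6.41, 6.26, 6.41 and 6.44 in Nkx2.2-/- replicates 11, 12, 22, 29 and 43, and 6.45, 6.43, 6.40, 7.45 and 7.03 in WT replicates 14, 15, 16, 18 and 21. Pcp2, a Purkinje cell gene, was at 7.62, 5.20, 5.21, 5.30 and 5.09 in Nkx2.2-/- and at 5.36, 5.19, 5.13, 7.89 and 6.64 in WT mice. The sums of the cerebellar list ran from 87.6 to 101.0 in Nkx2.2-/- and from 89.6 to 104.3 in WT mice, with 13 of 14 lower in sign in Nkx2.2-/- mice and 0 passing. Its part in the levels of the choroid plexus and ciliary genes was not tested.

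The lists did not share one order below those 3 mice. Nkx2.2-/- replicate 22 had the lowest mean level of the choroid plexus list, 5.31, and the lowest Ttr, yet its Foxj1 level of 5.30 was the second highest of its genotype. In Nkx2.2-/- replicates 12 and 43 and WT replicate 16, Ttr was at 11.97, 11.56 and 11.97, while the cerebellar mean was 6.41, 6.44 and 6.40, close to that of mice with lower Ttr. Meningeal markers, from the tissue that surrounds the brain, had the 3 mice of highest Ttr on top in 0 of 14 genes. Their mean level was highest in WT replicate 15, at 7.30, and lowest in WT replicate 21, at 6.10. In sign 13 of the 14 were lower in Nkx2.2-/- mice, with a median change of -0.19 and 0 passing, so choroid plexus genes were not alone in this. Of 9 proliferation markers 2 had the 3 mice on top; all 9 were lower in Nkx2.2-/- mice in sign, where 53.0% of all genes were. Of the 9, 7 had an unadjusted p below 0.05, where 3.69% of all genes did, and 0 passed the adjusted threshold. Their part in the values above was not tested.

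**Figure D4:**
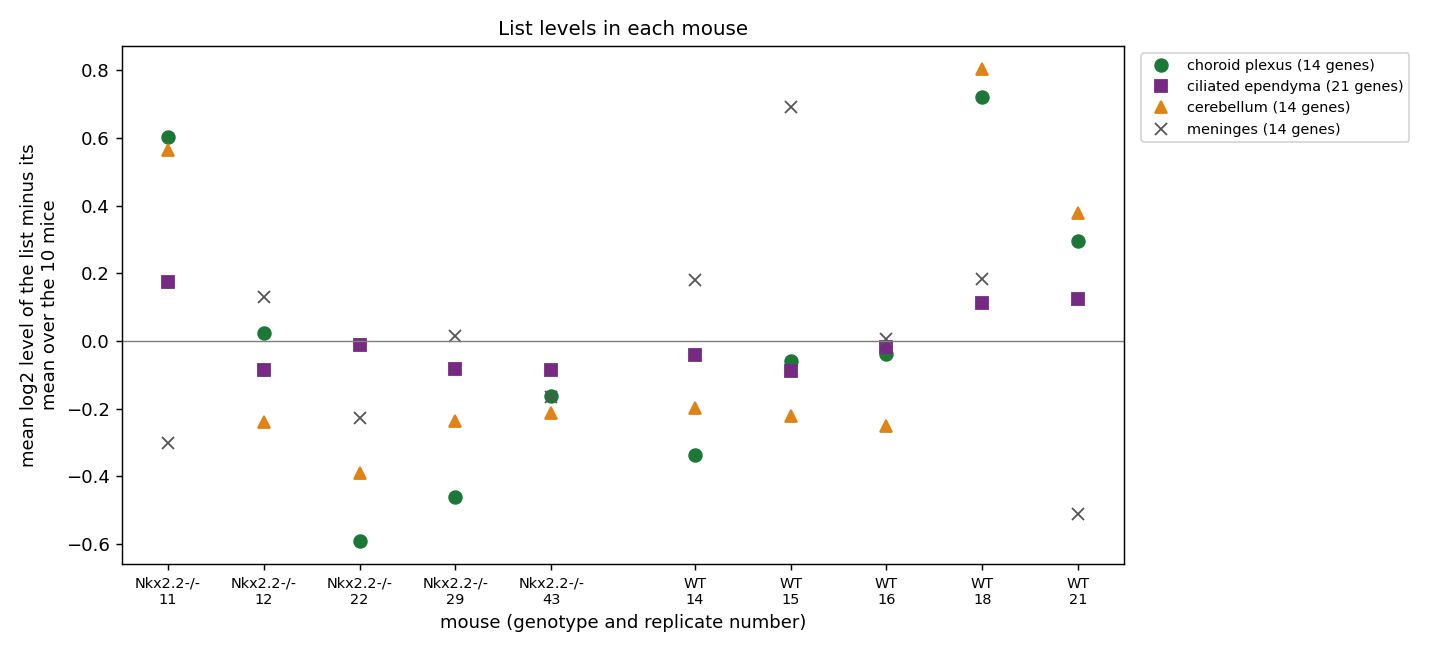
Mean log2 level of 4 gene lists in each mouse, minus the mean of that list over the 10 mice, with the 5 Nkx2.2-/- mice on the left and the 5 WT mice on the right. Choroid plexus and cerebellar genes are highest in Nkx2.2-/- replicate 11 and WT replicates 18 and 21, ciliated ependyma genes move less in the same mice, and meningeal genes have another order.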

How the data were processed

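Each array's deposited log2 level of a probe set is the authors' RMA value, as the submitters' processing notes name that method without a version. RMA corrects background, equalises the arrays' distributions and summarises probes, which hides any shift common to most genes. Of 45101 probe sets, 64 controls were left out. Symbols came from the platform annotation: 34945 probe sets had 1, 932 several and 9160 were unnamed here. The brightest probe set over all arrays stands for a gene.

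Every non-control probe set was fitted with lmFit and eBayes of limma 3.58.1 (R 4.3.3), Nkx2.2-/- minus WT without covariates, with Benjamini-Hochberg adjustment over all 45037 at 0.05. Exact two-sided permutation tests over mice were run for Nkx2-2, Ttr and Foxj1. Lists were described by counts and medians, without a test. Named were Ttr and a set of regulators, the 8 members of each group with the largest changes, those with separated groups, and the 5 largest changes of each further list; Cfap126, the brighter Hydin probe set and Pcp2 were given for every mouse after their values were seen. Members and lists were chosen with earlier results of these data known. The test was checked on simulated data. Alternatives were 2 further normalizations, filtering, probe set summaries, priors, array weights, Gapdh settings, thresholds and leaving out each array. The number of arrays limits precision. Python 3.11.15, pandas 2.3.3 and matplotlib 3.10.9 were used.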

Additional observations from a re-analysis of the deposited data

Results flagged for a closer look

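By the ratio of gap to group range, a single mouse stood far from the other 4 of its genotype in 7 of 90 groups. About 1 in 20 would do so by chance if the groups were independent. They were not, because they are genes measured in the same mice, some of them picked for large changes. A mouse can thus be counted several times, and the count is description only. In 5 of the 7 the single mouse was Nkx2.2-/- replicate 11, at the high end. It was at 5.16 for Slc4a5, with the next Nkx2.2-/- mouse at 4.63, and at 5.54 for Trpv4 (next 5.27). It was at 6.53 for Dynlrb2 (next 5.73), at 5.81 for Ak7 (next 5.62) and at 5.68 for Enkur, a ciliary gene outside the members (next 5.33). WT replicate 18 was high for Kcnj13, at 6.63 with the next WT mouse at 5.79. WT replicate 15 was low for Ak7, at 5.51 with the next WT mouse at 5.68.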

How the results depend on the processing

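In every alternative fit 0 choroid plexus and 0 ciliated ependyma genes passed limma's adjusted threshold, as did 0 of the further genes of either list; at an unadjusted p below 0.05 it was 1, 1, 2 and 6 genes. Over all probe sets the count was 23, against 11 with 1 probe set per gene and 12 when probe sets were averaged by gene. These fits by gene tested 18193 genes in place of 45037 probe sets, so a gene with several probe sets counted once. Probe sets with no symbol or several were left out of them. The count rose to 31 with a trend prior, 31 with the Gapdh difference as a covariate and 25 with array weights. It was 1545 at an unadjusted p below 0.05, and from 18 to 23 when each array was left out. The Ttr change stayed negative, from -1.61 to -0.19 without 1 array and from -1.85 to -0.58 otherwise. The Foxj1 change had no stable sign, being 0.0203 with the Gapdh difference as a covariate and from -0.113 to 0.0533 without 1 array (positive without Nkx2.2-/- replicate 29 or 43 or WT replicate 18 or 21); the cause was not tested. Without 1 array the median change ran from -0.32 to -0.05 for choroid plexus and from -0.07 to 0.0031 for ciliated ependyma. The Nkx2-2 change passed in all fits, from -2.10 to -1.97. No paired analysis was possible because the labels used here do not give the litter of each mouse.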
